A study of Drosophila melanogaster with 20 samples.

Results

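Surface glia sorted from the adult brain of Drosophila melanogaster were compared with the whole brain, 5 arrays against 5 of the 20 arrays in the series. The 5 arrays of surface glia are those whose label gives that cell type. Each held cells sorted from 9.137-GFP brains, with 10 to 15 brains of males and females per array, shaken at 37 degrees for 5 min with collagenase and DNase at a speed the labels print as 500pm, read here as 500 rpm. The 5 arrays of whole brain, labelled as all cells of the central nervous system, each held 5 brains of wild-type Canton S flies of both sexes. No age is given beyond adult. The labels give dissociation for the sorted cells alone, so cell type cannot be told apart from sorting, dissociation and genotype. The series also holds 5 arrays of all glia (REPO-GFP) and 5 of neurons (ELAV-GFP), which enter the fit and are quoted only for their levels. Each replicate came from a different growth bottle and day, and p-values describe only the spread among such preparations.

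Surface glia wrap the fly brain and form its blood-brain barrier. An outer layer of perineurial glia lies under a basement membrane, and an inner layer of subperineurial glia is sealed by septate junctions. Because the blood of the fly bathes the brain directly, these cells take up sugars, amino acids and ions with transporters, pump out foreign compounds, and respond to hormones on behalf of the neurons inside. Astrocyte-like, ensheathing and cortex glia lie deeper and contact neurons. The whole brain holds all of these cells, surface glia included, and in bulk RNA fewer cells of a type and less RNA per cell cannot be told apart.

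Values are log2 levels as deposited, and a difference is surface glia minus whole brain on that scale. The sorted arrays carried a raised background. The median of the 44 negative control probe sets averaged 3.96 in surface glia and 2.65 in whole brain, a difference of 1.31 (two-sided exact permutation test, p = 0.00794, the smallest that 5 against 5 arrays allow). Each array's 95th percentile of these controls averaged 5.23 in surface glia and 3.72 in whole brain. A gene was used where it exceeded that percentile on at least 4 of 5 arrays in at least 1 group, which 9146 of 11981 genes did: 6668 in both groups, 73 in surface glia alone and 2405 in whole brain alone. Calls needed an adjusted p below 0.05 together with a difference of at least 1. Where 1 group lay within the controls on all 5 arrays the difference is given as a lower bound ("at least"). Where a group's mean was under the mean percentile though 1 or more of its arrays passed, as for CG8051 and TpnC73F in whole brain and alrm, Dop2R, VGlut, Invadolysin, rumpel, sinu, Tbh, SerT, TyrR, Irk3 and Task7 in surface glia, the size is uncertain.

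Of the 9146 genes, 1731 (18.9%) were called higher in surface glia and 2495 (27.3%) lower. The counts of gene lists below are to be read beside these 2 shares. The arrays of the 2 groups did not overlap for 4058 genes (44.4%). By the same rule 32 of the 44 negative controls (72.7%) were called higher and 0 lower, so a small rise at a low level was not separated from the background. Where the higher group averaged at least 2 above its percentile, 6323 genes remained, 533 (8.43%) higher and 2417 (38.2%) lower. Counts at that stricter level, chosen after seeing the data, are called well above the controls. The percentile was lower in whole brain, so falls met that level more easily. It kept 2417 of 2495 falls but 533 of 1731 rises, so a fall that passes it says little about a list. The median difference of all 9146 genes was −0.31. Of the called genes 41.0% were higher. With each array centred on its negative controls instead, the median was −1.62, and 168 genes were higher (2.92% of those called) and 5580 lower. Under that scaling the barrier list had 9 higher and 2 lower and the basement membrane list 8 and 2, whereas the sugar and monocarboxylate carriers had 6 higher and 10 lower and fatty acid oxidation 1 and 2. Cuticle protein genes show the limit: 27 of 34 were called higher, but only 2 of 4 well above the controls, and their surface glia means had a median of 5.66.

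**Figure D1:**
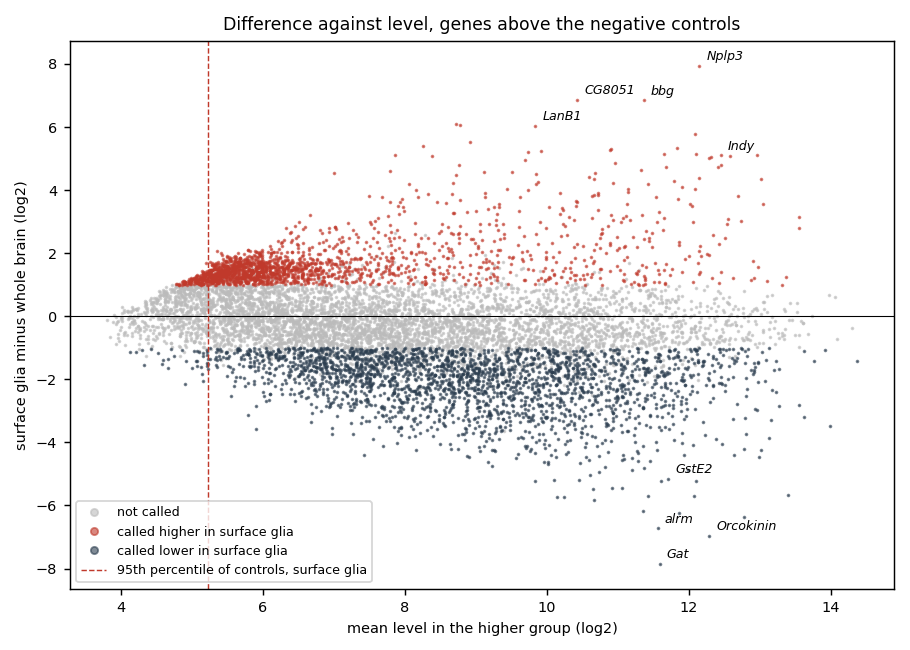
Each point is 1 of the 9146 genes, with the mean level of its higher group on the horizontal axis (log2) and surface glia minus whole brain on the vertical axis (log2). Calls of higher genes crowd at low levels next to the dashed line, the mean 95th percentile of the surface glia controls at 5.23, whereas Nplp3, CG8051, bbg, LanB1 and Indy stand at levels near or above 10 and Gat, alrm and Orcokinin lie at the lower right.

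The surface glia arrays were less alike (correlations of 0.781 to 0.896) than the whole-brain arrays (0.993 to 0.997). The fit uses 1 spread per probe set over all 4 groups. Surface glia 4 had the lowest mean correlation with its group, 0.785, and the highest control median, 4.55. Surface glia 3 stood apart in muscle genes: the 19 genes of the muscle list averaged 9.70 on that array, 5.35 to 6.27 on the other surface glia arrays and 4.53 to 5.00 in whole brain. Surface glia 1 had the highest mean of the 23 pan-neuronal and synaptic genes among the surface glia arrays, 11.52, and surface glia 4 the lowest, 9.74. Values without surface glia 3 or 4 are given where they change a result.

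Markers of the barrier were high on every surface glia array. Mdr65, an ABC transporter that keeps drugs out of the brain, was at 12.67, 12.50, 12.97, 12.54 and 12.01 in surface glia, versus 9.10, 9.54, 9.73, 10.11 and 9.59 in whole brain (difference 2.92, SE 0.28, adjusted p = 2.16e-07). The receptor gene moody, a G protein-coupled receptor that organises the septate junctions of the barrier, was at 10.87, 10.47, 11.41, 11.80 and 11.27 in surface glia, versus 9.41, 9.12, 9.54, 9.67 and 9.56 in whole brain. All 5 surface glia arrays lay above all 5 whole-brain arrays for both genes, but moody, with a difference of 1.70, was not called (adjusted p = 0.0648). It was called in a fit of the 10 arrays alone, and without the fourth arrays of surface glia and all glia. Its level averaged 9.16 in all glia and 4.17 in neurons. The surface glia and barrier list had 12 members higher of 17, all 12 well above the controls, and 1 was lower, Oatp58Dc, an organic anion transporter, at −2.31. The median difference of the list was 2.76, beside −0.31 for all genes. This list, like the others, was chosen with earlier results of these data known, so its rise is not independent evidence.

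Several markers of the deeper glia were lower in surface glia, and Gat, alrm, rumpel and e were about as low in the sort of all glia. The GABA transporter gene Gat was at 3.16, 3.35, 3.83, 4.09 and 4.29 in surface glia, versus 10.99, 11.70, 11.59, 12.02 and 11.64 in whole brain. It was lower by at least 6.36 (adjusted p = 5.32e-11), within the controls on every surface glia array. The gene alrm, which marks astrocyte-like glia, was at 4.16, 4.11, 4.11, 4.91 and 6.92 in surface glia, versus 11.23, 11.44, 11.58, 11.87 and 11.69 in whole brain, a difference of −6.72 (SE 0.84). Surface glia 5 was the highest of its group and still far below whole brain. In all glia, Gat averaged 3.78, alrm 5.38, rumpel 4.92 and e 5.69, beside 3.74, 4.84, 4.60 and 5.81 in surface glia. The astrocyte-like and ensheathing list had 7 lower and 0 higher of 11 (median difference −1.54), among them rumpel, a sodium-coupled solute carrier (−5.24, SE 0.28), e, an enzyme that joins beta-alanine to amines (−3.86), and Eaat2, an amino-acid transporter (−2.57). Eaat2 was at 10.13, 10.60, 10.06, 3.20 and 8.45 in surface glia, with surface glia 4 far below the others, and its difference was −1.24 without that array. Its call was lost in the fit of the 10 arrays alone. Eaat2 averaged 10.47 in all glia and 10.79 in neurons, so on these arrays it did not mark deeper glia alone. The cortex glia list was split, with 2 higher and 2 lower of 4. The gene wrapper (−3.52, SE 0.68) and zyd, a potassium-dependent sodium-calcium exchanger (−3.96, SE 0.43), were lower. The chloride channel gene ClC-a (7.40 to 8.84 in surface glia, versus 6.36 to 6.76 in whole brain, difference 1.45) and the potassium channel gene sand (mean 5.43 in surface glia and 4.04 in whole brain, difference 1.39) were higher, sand at a level close to the controls. On surface glia 3 wrapper reached 8.94, against 4.21 to 5.64 on the other surface glia arrays.

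Other labels were less sharply separated. The glial fate gene repo, a homeobox factor, was at 10.48, 11.34, 10.76, 10.60 and 10.14 in surface glia, versus 9.63, 10.01, 10.29, 10.19 and 10.45 in whole brain, and was not called (0.55, adjusted p = 0.214). The neuronal genes elav, an RNA-binding protein (12.72, 12.70, 11.43, 11.25 and 12.00 in surface glia, versus 12.86, 12.84, 12.71, 12.71 and 12.77 in whole brain), nSyb, a synaptic vesicle protein, and brp, an active zone protein, differed by −0.76, −0.60 and −0.60 and were not called. The neuronal marker fne was at 11.14, 12.18, 10.00, 10.12 and 11.22 in surface glia, versus 11.94 to 12.20 in whole brain, with arrays that overlapped. These neuronal genes were thus well above the controls on the surface glia arrays, and the part of neuronal RNA in the results below was not tested. The pan-neuronal and synaptic list had 10 lower (43.5%, beside 27.3% of all genes) and 0 higher of 23. All 23 were well above the controls, where 38.2% of all genes were lower. Without the fourth arrays of surface glia and all glia, 6 were lower.

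Some markers of cells outside the brain were higher too. Hemocytes, the blood cells of the fly, secrete collagen IV and other matrix proteins, as does the fat body. Of 12 hemocyte genes above the controls, 4 were higher (33.3%, beside 18.9% of all genes), 0 lower and 8 not called. Of the 6 well above the controls, 33.3% were higher, beside 8.43% of all genes. All 16 measured hemocyte genes averaged 6.47 to 6.85 over the surface glia arrays and 5.42 to 5.93 over the whole-brain arrays, a difference of 1.07. Of these genes, 3 lay within the controls in surface glia and 4 in whole brain. The negative controls differed by 1.31, but at lower levels of 3.96 and 2.65. NimC1, a phagocytosis receptor, was higher by 2.93 (7.05 to 8.10 in surface glia, versus 4.41 to 4.70 in whole brain). The GATA factor gene srp, at 8.28, 8.69, 4.77, 3.95 and 5.90 in surface glia, exceeded the controls on 3 arrays alone and so was not used. Of 8 fat body genes above the controls, 4 were higher, Yp1, Yp2, Yp3 and Lsd-1, and 2 lower, apolpp and the fatty acid synthase gene FASN1 (−1.36, and −0.64 without surface glia 4), with 1 lower without surface glia 4 or whole brain 2, 3, 4 or 5. All 11 averaged 7.35 to 8.55 in surface glia and 6.59 to 7.03 in whole brain. Without the 3 yolk protein genes, a choice made after seeing the data, the other 8 averaged 5.92 to 7.46 in surface glia and 6.61 to 6.80 in whole brain, so the groups overlapped. The 12 tracheal genes averaged 5.19 to 5.78 in surface glia and 4.67 to 4.84 in whole brain, close to the controls in both, a difference of 0.68.

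**Figure D2:**
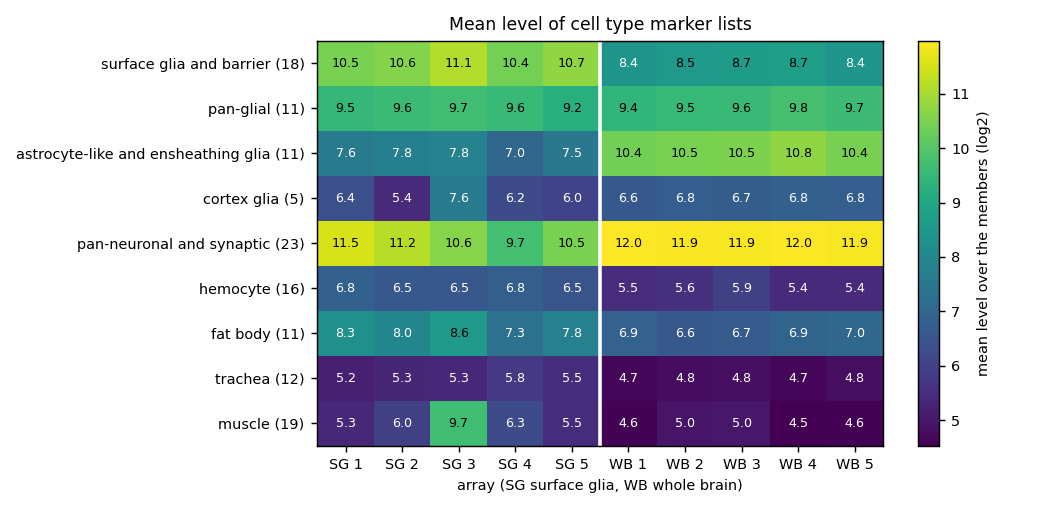
Mean log2 level over the members of 9 cell type marker lists (rows, number of genes in brackets) on each array (columns, surface glia 1 to 5 and then whole brain 1 to 5). The surface glia and barrier list is higher on every surface glia array, the astrocyte-like and ensheathing list is lower on every one, and the muscle list is high on surface glia 3 alone, at 9.70.

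The 15 largest rises were taken from called genes with no overlap of arrays. Nplp3, which encodes a neuropeptide-like precursor, was at 12.15, 12.27, 11.69, 12.62 and 12.02 in surface glia, versus 3.82, 4.74, 3.48, 5.31 and 3.66 in whole brain (difference 7.95, SE 0.80, adjusted p = 4.57e-07). Its lowest surface glia array lay more than 6 above its highest whole-brain array, and it averaged 10.52 in all glia and 3.33 in neurons. The PDZ-domain gene bbg was at 10.61, 11.21, 11.80, 12.18 and 11.03 in surface glia, versus 4.50, 4.59, 4.85, 4.48 and 4.15 in whole brain (difference 6.85, SE 0.63). The groups were far apart for bbg on this probe set, while another probe set of bbg rose by 1.29. CG8051, which resembles monocarboxylate transporters, was at 9.48, 10.33, 11.14, 10.62 and 10.58 in surface glia, versus 3.06, 3.54, 3.95, 3.77 and 3.47 in whole brain (difference 6.87, SE 0.60). LanB1, a laminin chain, was at 10.31, 9.78, 11.02, 8.06 and 10.01 in surface glia, versus 3.92, 3.95, 4.26, 3.52 and 3.33 in whole brain (difference 6.04, SE 0.41), with surface glia 4 the lowest of its group.

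Among the other members, CG31288, of the ecdysteroid kinase-like family, rose by at least 5.00 and ranged from 6.35 to 10.71 over the surface glia arrays. The collagen-like gene prc (pericardin) rose by at least 5.05 but spread widely, at 9.91, 10.57, 11.57, 4.36 and 7.48 in surface glia. The thrombospondin gene Tsp rose by at least 5.20, at 11.14, 9.37, 10.96, 6.37 and 6.76 in surface glia, with surface glia 1 and 3 near 11 and surface glia 4 and 5 under 7. Another probe set of Tsp rose by 1.96. CG7203 rose by at least 4.54, with surface glia 5 far below the rest. More even were CG5080 (5.78, SE 0.35, 11.37 to 12.83 in surface glia), CG3036, of the anion transporter family that carries phosphate (5.34, 11.53 to 12.11), Miox, which breaks down inositol (5.26, 10.47 to 11.75), and Ppn, the matrix protein papilin (5.16, 10.93 to 12.45). The gene blot, a neurotransmitter symporter-like carrier, rose by 5.32, stl, a secreted metalloprotease of the ADAMTS kind, by 5.25, and olf186-M by 5.20.

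**Figure D3:**
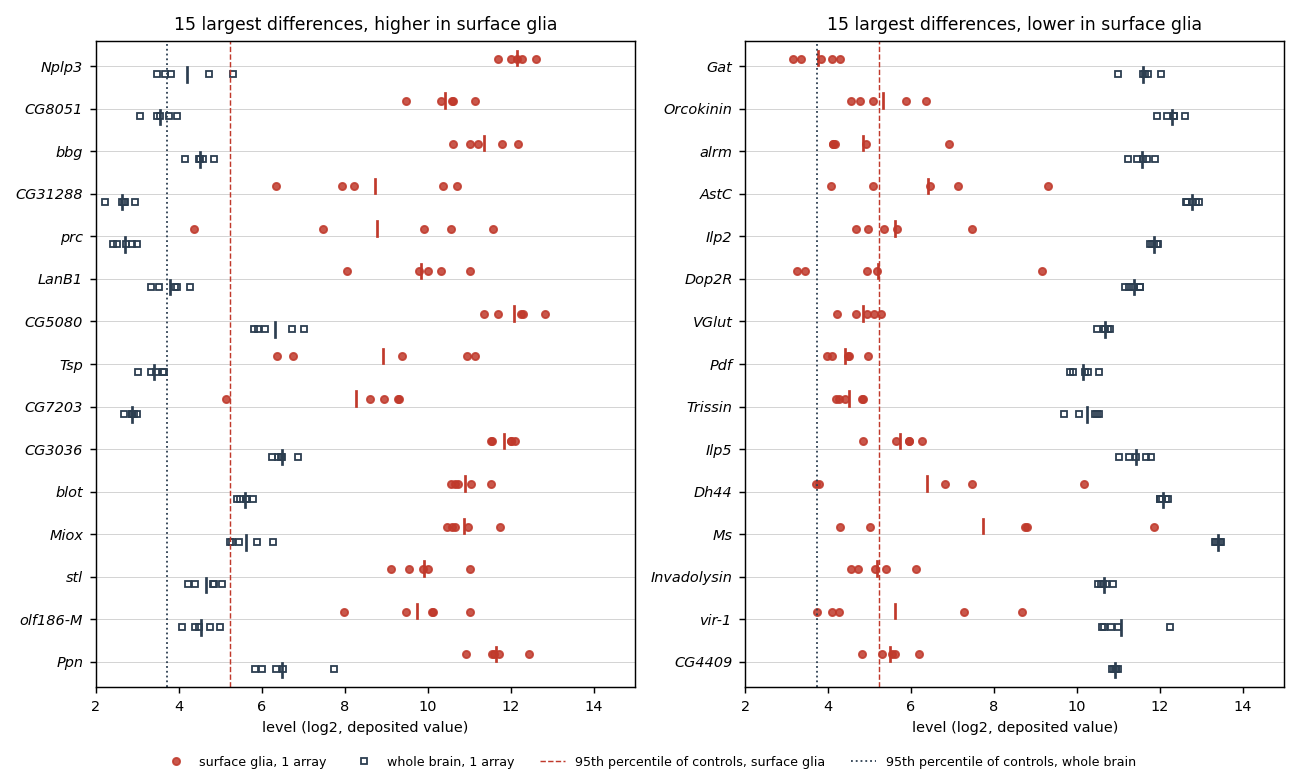
Log2 levels of the 15 genes with the largest rises (left) and the 15 with the largest falls (right), with 1 filled circle per surface glia array above 1 open square per whole-brain array and a bar at each mean. The groups do not overlap for any gene shown, as the rule required. Surface glia arrays spread most for prc, Tsp, CG31288, Dh44, Ms, AstC, Dop2R and vir-1.

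Transporters separated into carriers that rose and carriers that fell. The citrate carrier gene Indy was at 12.50, 12.35, 12.97, 12.16 and 12.28 in surface glia, versus 7.19, 7.63, 7.66, 7.30 and 6.93 in whole brain (difference 5.11, SE 0.70, adjusted p = 1.29e-05). The tight group of surface glia arrays lay far above whole brain, and Indy averaged 9.36 in all glia and 2.94 in neurons. Of 20 citrate and sodium-coupled carriers, 6 were higher and 7 lower. The higher ones included CG5687 (12.75 to 13.18 in surface glia, versus 8.25 to 9.37 in whole brain, difference 4.34), CG10444 (4.37) and SLC5A11 (4.29), which belong to the sodium-solute symporter family, as rumpel, which fell, does.

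The sugar carriers of the barrier rose. Tret1-1, which takes up trehalose, the blood sugar of insects, was at 12.83, 12.76, 12.98, 12.68 and 12.46 in surface glia, versus 9.10, 9.65, 10.22, 9.88 and 9.79 in whole brain (difference 3.01, SE 0.22). The sugar carrier gene pippin, related to Tret1-1, was at 12.27, 12.39, 12.39, 12.41 and 11.99 in surface glia, versus 7.26, 7.30, 7.70, 7.31 and 6.75 in whole brain (difference 5.03, SE 0.50). Both genes varied little among the surface glia arrays. The monocarboxylate carrier gene kar rose by 3.78 (SE 0.36). Glut1, a glucose carrier, fell by 1.94, with another probe set at −0.83 that was not called and 1 at −1.87 that was. Of 25 sugar and monocarboxylate carriers, 10 were higher and 2 lower (median difference 0.64), and 9 and 2 well above the controls. With arrays centred on their negative controls, more of this list was lower than higher, as given above.

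Carriers of organic anions and cations were split, with 10 higher (43.5%) and 8 lower (34.8%) of 23, beside 18.9% and 27.3% of all genes. CG6126, an organic cation carrier-like gene, was at 12.06, 12.13, 12.85, 12.53 and 11.98 in surface glia, versus 6.57, 7.30, 7.71, 7.73 and 7.00 in whole brain (difference 5.05, SE 0.31), and the groups did not overlap. CG6231 and Orct2, of the same family, rose by 4.53 and 4.18. Oatp74D, the carrier that imports ecdysone, rose by 4.42 (9.21 to 12.33 in surface glia, versus 5.88 to 6.48 in whole brain). Against these, Balat, a beta-alanine carrier, fell by at least 2.20 and lay within the controls on all surface glia arrays.

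Efflux pumps of the ABC family had 13 members higher (35.1%) and 6 lower (16.2%) of 37, or 8 and 5 well above the controls. Of all genes, 18.9% were higher and 27.3% lower. Mdr49 was at 10.72, 10.41, 10.64, 11.12 and 9.14 in surface glia, versus 6.11, 7.05, 7.41, 6.83 and 6.40 in whole brain (difference 3.65, SE 0.41), and CG10226, a relative of Mdr65 and Mdr49, rose by 2.97 (11.01 to 12.21 in surface glia, versus 7.84 to 8.92 in whole brain). These 2 and Mdr65 were all separated from whole brain on every array. Mrp4 rose by 2.78, at a lower level of 5.37 to 8.07.

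Amino-acid carriers had 13 lower and 9 higher of 28, and the higher ones were 40.9% of those called, beside 41.0% over all genes. The fallers included Gat, VGAT, which loads GABA into vesicles (−3.91), and CG7888, a proton-coupled amino-acid carrier-like gene, which was at 8.90, 7.88, 9.25, 7.34 and 6.54 in surface glia, versus 11.64, 11.85, 12.12, 12.29 and 12.40 in whole brain (difference −4.08, SE 0.52). Besides blot, CG15279, of the same symporter family, rose by 4.57 (SE 0.52), with surface glia 4 at 7.48 and the others between 9.34 and 9.82.

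Among genes of ion and water balance, 6 were higher and 9 lower of 20. NKCC, a sodium-potassium-chloride cotransporter, was at 12.50, 12.31, 13.33, 12.13 and 12.61 in surface glia, versus 7.20, 7.78, 7.69, 7.49 and 7.35 in whole brain (difference 5.07, SE 0.34, adjusted p = 3.14e-09). The aquaporin gene Prip rose by 3.62 (another probe set by 1.85) and the carbonic anhydrase gene CAH2 by 3.32, both with a wide spread, at 6.80 to 10.52 and 6.42 to 11.45 over the surface glia arrays. Calx, a sodium-calcium exchanger used by neurons, fell by 4.33, although surface glia 1 was at 9.49 beside 3.55 to 6.78 on the others. Vha100-2, a membrane subunit of the proton pump, rose by 4.26 (9.45 to 10.94 in surface glia, versus 5.29 to 6.19 in whole brain).

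**Figure D4:**
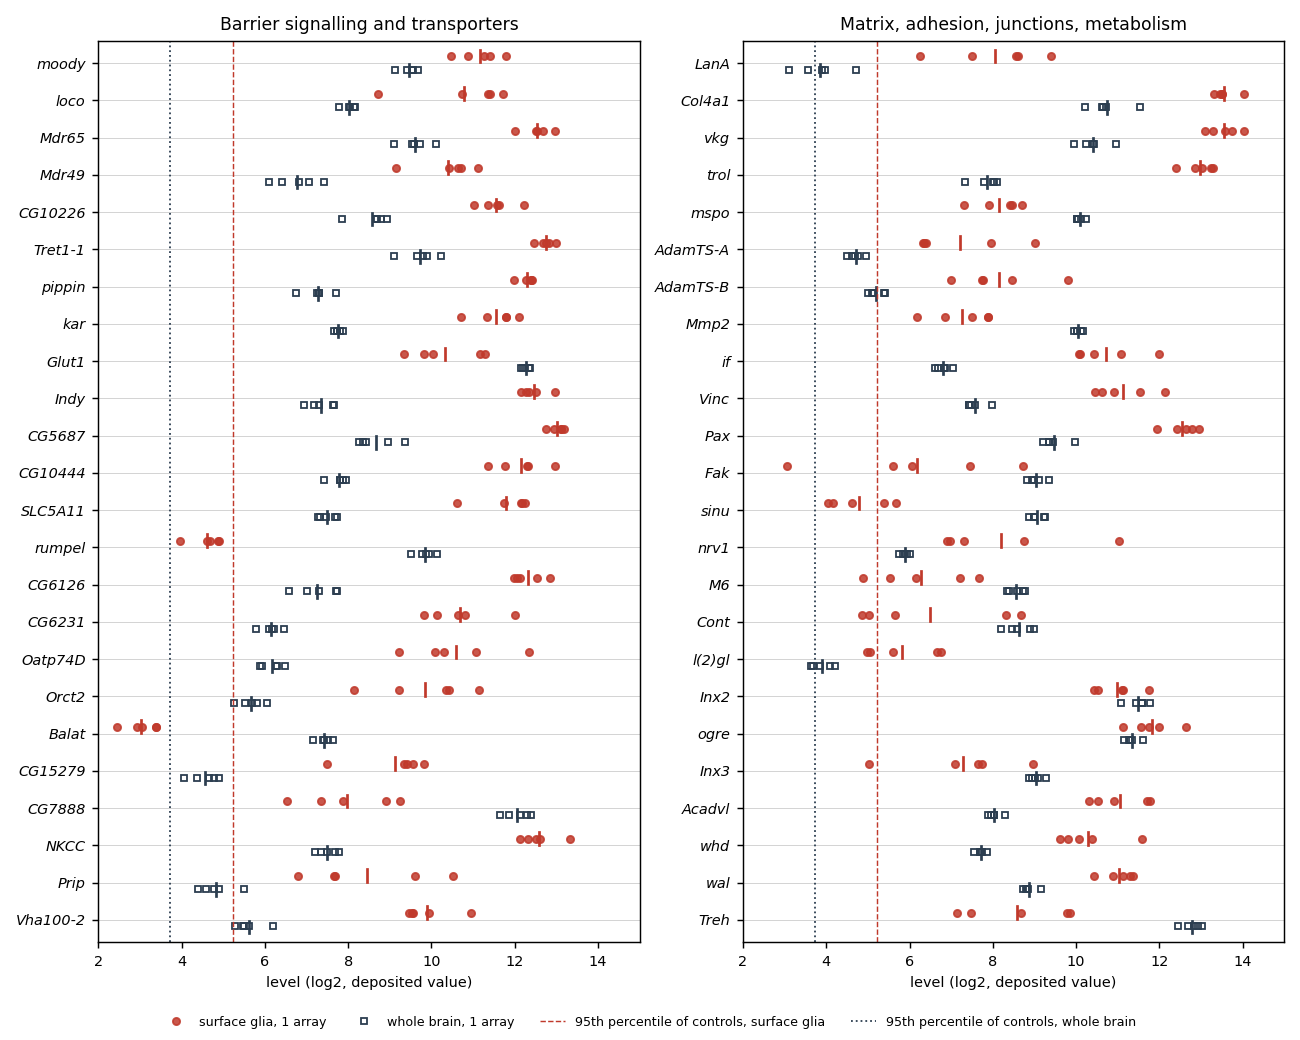
Log2 levels per array of 24 genes of barrier signalling and transport (left) and 24 genes of matrix, adhesion, junctions and metabolism (right), with filled circles for surface glia above open squares for whole brain, a bar at each mean, and vertical lines at the mean 95th percentile of the controls in surface glia (dashed) and whole brain (dotted). Indy, pippin, NKCC, CG5687 and CG6126 stand near 12 to 13 on every surface glia array, while rumpel, Balat and CG7888 are lower and Fak, Cont and Inx3 spread widely.

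Of the 6 genes of moody signalling, 2 were higher and 1 lower. The gene loco, a G protein signalling regulator that acts with moody, was at 11.41, 11.35, 11.71, 10.74 and 8.71 in surface glia, versus 8.01, 7.78, 8.14, 8.04 and 8.17 in whole brain (difference 2.76, SE 0.40), and did not overlap. Strn-Mlck, a myosin light chain kinase, rose by 3.77 with a wide spread (5.77 to 11.72), and of its other probe sets 1 rose by 1.44 and 1, at 0.57, was not called. It was highest on surface glia 3, at 11.72, the array with the high muscle genes, and its difference without that array was 3.12. Pka-R1, a regulatory subunit of protein kinase A, was at −1.29, and its call was lost without surface glia 2 or 5 and when probe sets were averaged.

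The basement membrane rose as a group. Of its 16 structural genes, 12 were higher and 1 lower (median difference 2.82), and 9 and 1 of 12 were well above the controls. The 2 collagen IV chains are the main fibres of this sheet. Col4a1 was at 13.50, 13.51, 14.02, 13.46 and 13.30 in surface glia, versus 10.62, 10.72, 10.65, 11.53 and 10.22 in whole brain (difference 2.81, SE 0.26), and vkg was at 13.57, 13.28, 14.03, 13.75 and 13.10 in surface glia, versus 10.24, 10.40, 10.42, 10.95 and 9.96 in whole brain (difference 3.15, SE 0.43). Neither chain overlapped between the groups, and both were lower in neurons, at means of 4.92 and 5.80.

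The perlecan gene trol was at 13.03, 12.85, 13.24, 13.29 and 12.40 in surface glia, versus 8.01, 7.79, 8.04, 8.09 and 7.33 in whole brain (difference 5.11, SE 0.79). The gene has 7 more probe sets, 2 called higher and 5 not called, so the size holds for 1 probe set. LanA, another laminin chain, rose by 4.21 (6.24 to 9.39 in surface glia, versus 3.11 to 4.72 in whole brain). The exception was mspo, a secreted spondin, at −1.93. Hemocytes and fat body also make this matrix. Of their markers, 4 of 12 hemocyte genes were higher (33.3%, beside 18.9% of all genes) and 0 lower. The fat body list overlapped between the groups once the yolk protein genes were left out. The part of these cells was not tested.

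Proteases that remodel the matrix were divided, with 8 higher and 3 lower of 21. AdamTS-A, a secreted metalloprotease, rose by 2.50 and by 6.54 on its other probe set, and AdamTS-B rose by 2.95. Mmp2, a membrane-anchored matrix metalloprotease, was at 7.50, 7.88, 6.85, 7.88 and 6.17 in surface glia, versus 9.94, 10.02, 10.12, 10.03 and 10.16 in whole brain (difference −2.80). Its other probe set was at 1.35 and was not called, and the mean over the 2 probe sets was not called either. The neprilysin gene Nep3 fell by 2.37.

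Adhesion to that matrix involved 8 higher and 4 lower of 20 integrin and focal adhesion genes, all of these calls well above the controls. The integrin alpha chain gene if (inflated) was at 10.09, 10.06, 11.07, 11.98 and 10.42 in surface glia, versus 6.83, 6.68, 6.85, 7.04 and 6.61 in whole brain (difference 3.92, SE 0.75). Vinc (vinculin) rose by 3.56 and Pax (paxillin), both adaptors at integrin contacts, by 3.08 (SE 0.26, 11.94 to 12.95 in surface glia, versus 9.21 to 9.97 in whole brain). All 3 genes were clear of whole brain on every array. Pax was above whole brain, at 9.46, in the other sorts too, averaging 11.67 in all glia and 11.30 in neurons. In neurons if and Vinc averaged 4.35 and 6.23. Fak, the focal adhesion kinase, opposed them at −2.86, ranging from 3.07 to 8.72 over the surface glia arrays.

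How often septate junction genes were lower depended on the scaling. Of 27, 4 were higher (14.8%, beside 18.9% of all genes) and 11 lower (40.7%, beside 27.3%), median difference −0.68. Well above the controls, 2 and 10 of 22 were called, 45.5% lower beside 38.2% of all genes. Quantile normalization left 5 lower and 5 higher. The claudin gene sinu was at 5.67, 5.39, 4.05, 4.16 and 4.63 in surface glia, versus 8.98, 8.98, 9.24, 8.88 and 9.25 in whole brain (difference −4.29, SE 0.34). It was also at 9.28 in neurons and 7.91 in all glia. Cont (contactin) was lower by 2.12 with overlapping arrays, at 5.64, 5.02, 8.31, 4.85 and 8.67 in surface glia, versus 8.98, 8.45, 8.19, 8.57 and 8.90 in whole brain, and M6, a proteolipid protein, was at −2.28. On the other side, nrv1, a sodium pump beta subunit, rose by 2.30, highest on surface glia 3 at 11.02, and l(2)gl, a polarity protein, by 1.92 at a low level of 4.97 to 6.76.

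The gap junction genes ogre (11.12 to 12.64 in surface glia, versus 11.15 to 11.61 in whole brain) and Inx2 (10.42 to 11.76 in surface glia, versus 11.08 to 11.78 in whole brain), which link barrier cells to each other, were at a high level in both groups and were not called. Inx3 was at −1.75, with arrays that overlapped.

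Of 16 genes of fatty acid oxidation, 11 were higher and 0 lower (median difference 1.35), and 9 and 0 of 12 were well above the controls. These counts depended on the scaling. With arrays centred on their negative controls, most of these genes were no longer called higher, as given above. Acadvl, a very-long-chain acyl-CoA dehydrogenase, was at 10.32, 10.90, 11.78, 11.69 and 10.52 in surface glia, versus 8.02, 7.96, 7.89, 8.29 and 8.04 in whole brain (difference 3.0, SE 0.55, adjusted p = 0.000148). The carnitine acyltransferase gene whd (CPT1) was at 9.61, 9.81, 11.59, 10.37 and 10.07 in surface glia, versus 7.71, 7.73, 7.70, 7.87 and 7.54 in whole brain (difference 2.58), and its other probe set rose by 1.23. CPT2, its inner-membrane partner, rose by 2.66, colt, the carnitine carrier, by 1.88, and wal, an electron transfer flavoprotein subunit, by 2.16. Each of these but CPT2, whose surface glia 4 array was at 5.41, was clear of whole brain on every array. Muscle burns fat as well. Without surface glia 3, the array with the high muscle genes, 10 genes were higher and 0 lower, with Acadvl at 2.82 and whd at 2.25. On the other surface glia arrays some muscle genes, such as Act79B, were high and others, such as fln, were low. Leaving out 1 array therefore cannot decide the part of muscle, which was not tested.

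Lipid carrier and lipid droplet genes were called about as often as all genes. Of 22, 4 were higher (18.2%) and 5 lower (22.7%), beside 18.9% and 27.3% of all genes. Lsd-2, a perilipin of lipid droplets, was at 12.89, 12.65, 13.23, 13.03 and 13.10 in surface glia, versus 10.86, 11.35, 11.64, 11.60 and 11.61 in whole brain (difference 1.57, SE 0.44). The acyl-CoA synthetase gene bgm rose by 3.13 and Lsd-1, the other perilipin, by 2.15. Npc1a, which moves sterol out of lysosomes, was at 6.51, 7.40, 7.07, 7.01 and 6.68 in surface glia, versus 10.76, 10.97, 11.05, 10.78 and 10.95 in whole brain (difference −3.97, SE 0.40), with no overlap. The lipocalin gene NLaz fell by at least 1.77. The lipophorin gene apolpp was at −2.71, but at 7.98, 10.55, 11.47, 4.26 and 7.07 across the surface glia arrays, which overlap the whole-brain arrays, and the difference was −1.70 without surface glia 4. The scavenger receptor gene pes rose by 3.11 (10.77 to 11.69 in surface glia, versus 7.74 to 8.12 in whole brain).

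Treh, which splits trehalose into glucose, was at 9.85, 7.13, 9.78, 8.68 and 7.48 in surface glia, versus 12.45, 12.69, 12.84, 12.92 and 13.01 in whole brain (difference −4.20, SE 0.50). It was low in every sort, averaging 8.58 in surface glia, 9.19 in all glia and 8.52 in neurons. Of 15 genes of glycolysis and trehalose, 4 were higher, Tpi among them at 1.40, and Treh alone was lower, with 2 lower without surface glia 2. Oxidative phosphorylation had 23 members lower and 2 higher of 62 (median difference −0.55), and 23 of 55 lower well above the controls (41.8%, beside 38.2% of all genes). Among them were the complex I genes ND-PDSW at −3.53 and ND-19 at −3.25 and the cytochrome oxidase gene COX7C at −3.16. Another probe set of COX7C, at 0.78, was not called. RFeSP, the iron-sulfur protein of complex III, was at −2.72 and at −3.83 on another probe set. The level of ND-PDSW was low in every sort, at 7.71 in surface glia, 8.08 in all glia and 8.17 in neurons, against 11.24 in whole brain.

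Cytosolic ribosomal protein genes had 14 lower and 2 higher of 32 (median difference −0.66), and 46.7% of the 30 well above the controls were lower, beside 38.2% of all genes. RpS18 was at 9.74, 9.06, 10.80, 9.56 and 10.19 in surface glia, versus 13.11, 13.18, 13.24, 13.08 and 13.19 in whole brain (difference −3.29), and RpL23 and RpL32 were at −2.85 and −2.82. In neurons RpS18 averaged 7.92. RpL3 was called higher at 1.06, but its other probe sets, at −1.10 and −0.18, were not called, and the mean of its probe sets turned the sign. Without surface glia 3, 1 ribosomal gene was higher. The heat shock genes Hsp27 and Hsp26 rose by 2.98 and 1.48. They averaged 12.05 and 11.65 in surface glia, 11.90 and 11.78 in neurons, against 9.08 and 10.17 in whole brain.

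Among detoxification genes, single members differed widely. The P450 enzymes had 14 higher and 15 lower of 53, but 3 (10.3%) and 13 (44.8%) of 29 well above the controls, beside 8.43% and 38.2% of all genes. Cyp6a20 was at 9.66, 10.19, 12.48, 7.48 and 11.25 in surface glia, versus 6.68, 6.69, 6.69, 6.78 and 7.04 in whole brain (difference 3.44, SE 0.72), and Cyp6a17 rose by at least 4.07 with a spread of 5.83 to 10.57. Cyp4s3 was at −3.65. Of 15 UDP-glycosyl transferases, 8 were higher and 1 lower (3 and 1 well above the controls), with 2 lower without surface glia 1 or 4 or whole brain 1 or 2, and the largest changes were of Ugt302C1, at 9.73, 9.88, 8.63, 9.00 and 11.26 in surface glia, versus 4.23, 4.85, 5.20, 4.99 and 4.52 in whole brain (difference 4.94), and Ugt35B1, at −3.84.

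Glutathione transferases had 9 higher (31.0%) and 5 lower (17.2%) of 29, beside 18.9% and 27.3% of all genes, and 3 lower without whole brain 2. GstE2 was at 6.47, 7.39, 4.95, 7.19 and 6.78 in surface glia, versus 11.49, 11.72, 11.87, 11.78 and 11.66 in whole brain (difference −5.15, SE 0.56), and GstD9 fell by 3.64. GstE7 and GstT3 rose by 3.79 and 2.94. The groups did not overlap for any of these 4 genes. GstE2 averaged 7.03 in all glia and 6.46 in neurons, and 6.56 in surface glia.

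Hormone and growth signals included several secreted factors at a high level. ImpL2, a secreted protein that binds insulin-like peptides, was at 11.78, 11.91, 11.90, 11.32 and 9.79 in surface glia, versus 7.38, 7.60, 8.48, 8.72 and 8.51 in whole brain (difference 3.20, SE 0.45), and Sdr, a secreted decoy of the insulin receptor, was at 10.82, 11.54, 11.25, 10.84 and 10.50 in surface glia, versus 7.66, 8.62, 8.78, 8.64 and 8.68 in whole brain (difference 2.51). Both were clear of whole brain on every array. The insulin signalling list had 4 higher and 0 lower of 9, 2 without surface glia 2 or 3 or whole brain 2, 3, 4 or 5, and 5 without surface glia 4. The activin-like ligand gene daw was at 9.44, 10.67, 11.30, 9.84 and 9.66 in surface glia, versus 5.95, 5.95, 6.43, 6.64 and 6.35 in whole brain (difference 3.92, SE 0.48). Its pathway had 2 higher (13.3%), 6 lower (40.0%) and 7 not called of 15, beside 18.9% higher and 27.3% lower of all genes. The other higher member was gbb, a BMP ligand, at 1.19, whose call was lost without surface glia 3 or 5. The type II receptor gene put was at −4.36 (SE 0.50) and the neuronal ligand gene Actbeta at −3.68.

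Of the receptor tyrosine kinases, Alk, a receptor of neurons, was at −3.71 (SE 0.61). Egfr and Pvr, receptors for epidermal and for PDGF- and VEGF-related growth factors, rose by 2.64 and 2.45, each with arrays that overlapped. Surface glia 3 gave the highest Egfr value, 10.72, beside 3.91 to 7.77, and the difference of Egfr was 1.66 without it. In the Hedgehog pathway the transcription factor gene ci was at 10.33, 9.54, 11.07, 8.33 and 10.86 in surface glia, versus 6.63, 6.39, 6.68, 6.52 and 6.60 in whole brain (difference 3.46), and the receptor gene ptc rose by 1.86. The nuclear receptor gene Hnf4, a regulator of lipid use, was at 9.65, 10.66, 11.17, 10.34 and 11.35 in surface glia, versus 7.58, 7.12, 7.44, 7.67 and 7.70 in whole brain (difference 3.13, SE 0.64). The ecdysone receptor gene EcR and the nuclear receptor gene ftz-f1 were at −2.64 and −2.55, and another probe set of ftz-f1, at −0.12, was not called.

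Immune signalling genes were higher in 10 (45.5%, beside 18.9% of all genes) and lower in 1 of 22, with 2 lower without surface glia 1 or 2. Well above the controls, 6 of 14 were higher (42.9%, beside 8.43% of all genes) and 1 was lower. The serpin gene nec, an inhibitor of Toll activation, was at 11.20, 11.28, 11.39, 11.77 and 10.07 in surface glia, versus 6.86, 7.23, 7.39, 7.19 and 6.85 in whole brain (difference 4.04, SE 0.34). The adaptor gene Myd88 rose by 2.41 and pirk, which restrains the Imd pathway, by 3.50, both highest on surface glia 3, at 10.68 and 11.21.

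Of 11 clock genes, 3 were higher (27.3%), 2 lower (18.2%) and 6 not called, beside 18.9% and 27.3% of all genes. The genes tim, vri and Clk, parts of the daily transcription loop, rose by 2.52, 2.53 and 2.31, and Pdfr, the receptor of a clock neuropeptide, and dco, a kinase of the loop, were at −2.38 and −2.11. The time of dissection is not given in the labels. Surface glia 2 stood apart for tim, at 8.54 beside 11.42 to 12.08, and the call of Clk was lost without surface glia 2 or 3.

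The yolk protein genes, which fat body and ovarian follicle cells of females express strongly, rose together. Yp1 was at 12.32, 12.98, 12.97, 12.18 and 13.01 in surface glia, versus 9.06, 7.87, 8.56, 9.03 and 9.92 in whole brain (difference 3.80, SE 0.34), Yp2 at 10.91, 11.70, 12.90, 12.66 and 10.25 in surface glia, versus 7.39, 6.30, 6.31, 6.95 and 7.83 in whole brain (difference 4.73), and Yp3 rose by 2.49. No array overlapped for any of the 3. Both groups held males and females in shares the labels do not give. Of the 5 other fat body genes above the controls, Lsd-1 was higher, apolpp and FASN1 were lower and 2 were not called. The part of fat body cells was not tested.

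The largest falls were of peptide hormones, transmitter genes and astrocyte genes. Orcokinin was at 5.88, 5.08, 4.56, 6.36 and 4.77 in surface glia, versus 12.35, 11.94, 12.34, 12.18 and 12.60 in whole brain (difference −6.95, SE 0.56, adjusted p = 2.89e-08). The insulin-like peptide gene Ilp2 was at 7.46, 4.68, 5.67, 4.95 and 5.35 in surface glia, versus 11.80, 11.86, 11.96, 11.75 and 11.94 in whole brain (difference −6.24), and Ilp5, made by the same neurosecretory cells, at 5.94, 5.94, 4.85, 6.26 and 5.63 in surface glia, versus 11.01, 11.43, 11.78, 11.26 and 11.66 in whole brain (difference −5.70, SE 0.28). Both genes lay near the controls on most surface glia arrays. Pdf, the clock neuropeptide, fell by at least 4.92 and Trissin by at least 5.01. These genes were about as low in the other sorts, neurons included. Orcokinin averaged 6.23 in all glia and 6.06 in neurons, and in the same order Ilp2 averaged 5.54 and 5.31, Ilp5 5.43 and 4.77, Trissin 4.52 and 3.78, and Pdf 5.67 and 3.58.

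Other peptides were uneven between preparations. AstC (allatostatin C) was at 9.29, 4.06, 5.07, 6.45 and 7.14 in surface glia, versus 12.78, 12.65, 12.88, 12.63 and 12.93 in whole brain (difference −6.37, SE 1.30), and averaged 8.78 in all glia and 10.18 in neurons. Dh44, a diuretic hormone, was at 6.82, 10.18, 3.70, 3.79 and 7.48 in surface glia, versus 12.14, 12.01, 12.01, 12.04 and 12.20 in whole brain, and Ms (myosuppressin) at 8.74, 11.85, 4.28, 8.80 and 5.00 in surface glia, versus 13.39, 13.32, 13.34, 13.44 and 13.47 in whole brain (differences −5.69 and −5.66). No single array was high for all 3: surface glia 1 was highest for AstC and surface glia 2 for Dh44 and Ms. Of 32 neuropeptide genes, 19 were lower (median difference −1.80), all 19 well above the controls, and 5 were higher, 3 of them well above the controls, these being Nplp3, Nplp2 at 2.99 (SE 0.62) and Akh. Akh, the adipokinetic hormone, rests on surface glia 1, at 13.21 beside 5.81 to 6.59 on the others and 4.84 to 5.66 in whole brain, and its call was lost without that array.

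Genes of transmitter use were lower in 14 of 17 and higher in 0 (median difference −2.02), and all 14 were well above the controls in whole brain. VGlut, the vesicular glutamate carrier, was at 5.27, 4.94, 4.66, 5.11 and 4.21 in surface glia, versus 10.64, 10.75, 10.68, 10.47 and 10.79 in whole brain (difference −5.83, SE 0.37), with another probe set at 0.36 that was not called. Tbh, which makes octopamine, and SerT, the serotonin carrier, were at −4.43 and −3.55, and each was far higher on surface glia 1, at 6.89 and 7.67, than on the other 4. Hdc, which makes histamine, fell by at least 0.69. VGlut and Hdc were below whole brain in the other sorts too. VGlut averaged 6.86 in all glia and 7.80 in neurons, against 10.67 in whole brain. Hdc averaged 2.27 in all glia and 2.89 in neurons, against 5.91 in whole brain.

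Receptors followed. The dopamine receptor gene Dop2R was at 9.16, 5.18, 3.26, 3.43 and 4.94 in surface glia, versus 11.16, 11.25, 11.53, 11.35 and 11.52 in whole brain (difference −6.17, SE 0.77), and its other probe set fell by 1.81. It averaged 11.38 in neurons and 9.78 in all glia. Of 15 amine receptors, 7 were lower (46.7%, beside 27.3% of all genes) and 1 higher, with TyrR at −2.83 and 5-HT7 at −2.73. Of 9 nicotinic receptor subunits, 7 were lower, with nAChRalpha1 at −3.35 and nAChRalpha7 at −2.89, and nAChRbeta3 was higher at a low level (5.32 to 7.70 in surface glia, difference 2.17). Of 15 glutamate and GABA receptors, 9 were lower and 0 higher, with GABA-B-R1 at −4.02, mGluR at −2.92 and Nmdar1 at −2.95. Nmdar1 was at 9.39, 9.17, 3.81, 4.20 and 10.04 in surface glia, so 3 arrays were near the whole-brain level of 10.28 and 2 were near the controls.

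Ion channels were lower in 20 (57.1%, beside 27.3% of all genes) and higher in 3 of 35, and 11 and 3 after quantile normalization. The potassium channel genes Irk3 (4.94 to 5.86 in surface glia, versus 8.61 to 9.04 in whole brain), Shal and Task7 were at −3.67, −3.41 and −3.23. Irk3 and Task7 were low in every sort. Irk3 averaged 5.01 in all glia and 4.37 in neurons, and Task7 5.17 and 5.63, against 7.78 in whole brain. Shal averaged 8.84 in all glia and 9.88 in neurons. NetB, a netrin guidance cue, was at −4.43, with surface glia 1 at 9.45 beside 5.00 to 6.03. The clathrin adaptor gene lap fell by 3.27 and by 4.62 on another probe set, and Rbp9, a neuronal RNA-binding protein, was at −2.87, with another probe set that rose by 1.04. The prohormone convertase gene amon was at −2.97, from 7.43 to 11.86 over the surface glia arrays.

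Some large falls lay outside neuronal genes. AP-2sigma, the small subunit of the endocytic clathrin adaptor, was at 7.21, 6.07, 7.44, 5.87 and 6.27 in surface glia, versus 11.10, 11.23, 11.12, 10.96 and 11.03 in whole brain (difference −4.52, SE 0.36). Invadolysin, a metalloprotease, was at 4.55 to 6.11 in surface glia, versus 10.51 to 10.87 in whole brain, and CG4409 at 4.82 to 6.18 in surface glia, versus 10.85 to 10.98 in whole brain (differences −5.48 and −5.44). The virus-induced gene vir-1 was at 7.28, 8.68, 4.10, 3.73 and 4.26 in surface glia, versus 12.25, 10.61, 10.65, 10.83 and 10.98 in whole brain (difference −5.45). All 4 genes averaged 8.1 or less in each of the 3 sorts, whole brain alone being higher.

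**Figure D5:**
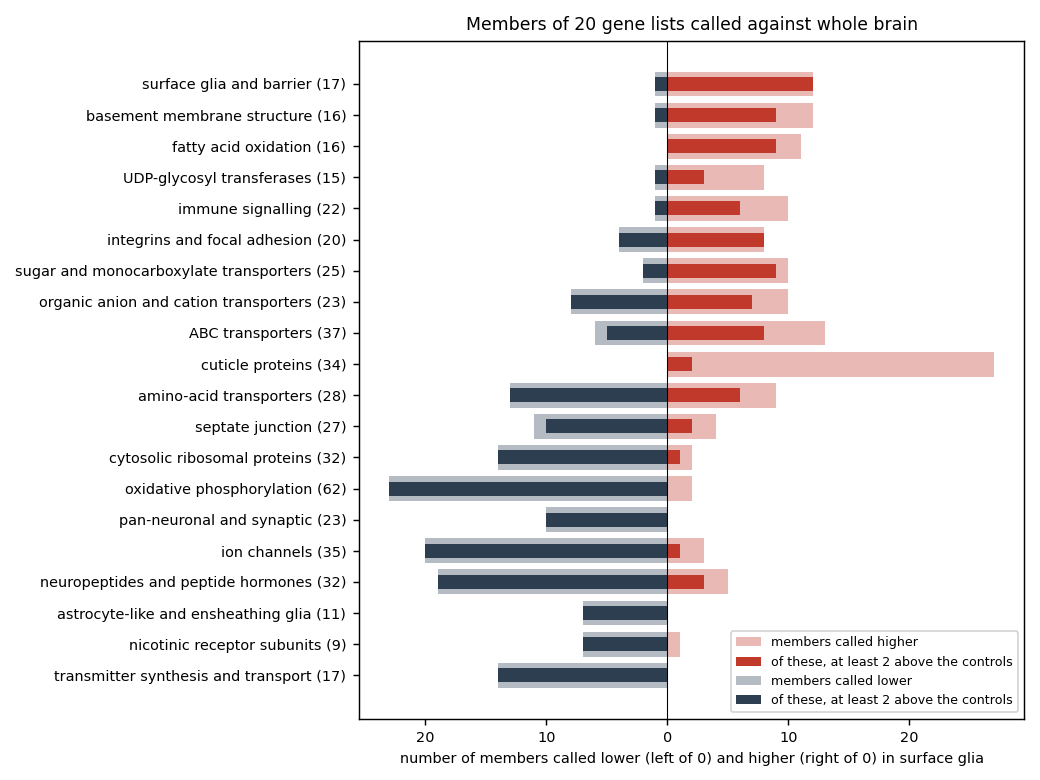
Number of members called higher (right of 0) and lower (left of 0) in surface glia in 20 gene lists, with the number of members above the controls in brackets. Pale bars count all calls and dark bars the calls well above the controls. All bars use the values as deposited, not arrays centred on their negative controls. Most of the 27 cuticle protein calls vanish in the dark bars, while the 12 barrier calls and 9 of 11 fatty acid oxidation calls stay. Nearly all falls of neuronal lists stay too, but so do 2417 of 2495 falls over all genes, against 533 of 1731 rises.

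Several muscle genes rest on a single array. Mlc2, a myosin light chain, was at 3.66, 3.17, 12.61, 3.72 and 2.95 in surface glia, versus 2.09, 2.38, 2.88, 2.06 and 2.20 in whole brain, and up (troponin T) was at 4.49, 4.94, 10.98, 4.80 and 4.97 in surface glia, versus 3.39, 4.55, 4.21, 3.49 and 3.43 in whole brain. Only surface glia 3 was high for both genes, as it was for Prm (paramyosin) at 13.11, Zasp66, a sarcomere protein, at 12.51 and Hsc70-1, a heat shock cognate, at 12.47. Without it the differences were 1.94 for Prm, 1.07 for Zasp66, 1.22 for Hsc70-1 and 1.05 for Mlc2. Of 13 muscle genes above the controls, 7 were higher and 1 lower with that array and also without it, and up and Mlc2, above the controls on too few arrays, are not among the 13. The difference of up was 0.99 without that array. Act79B, an actin of thoracic muscle, ran the other way, at 10.26, 11.60, 6.01, 11.74 and 12.30 in surface glia, with surface glia 3 the lowest, and TpnC73F, a troponin C, was at 7.66, 8.81, 5.90, 9.50 and 5.58 (differences 3.06 and 3.82). The flightin gene fln, which marks flight muscle, fell by at least 2.06 and lay within the controls on all 5 surface glia arrays.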

How the data were processed

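The 20 arrays each measured 1 sample on a single-channel Affymetrix array, 5 for each of 4 groups taken from the labels. The deposited values are log2 levels per probe set, and the submitters' processing notes name RMA, affy and limma, with no versions. The deposited arrays did not share 1 distribution: their lower quartiles ran from 3.78 to 5.02 and their medians from 5.61 to 6.10. RNA was amplified before labelling per the labels' protocols, and the part of amplification in the spread was not tested. With no counts behind array values, precision is set by how many arrays there are.

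Of 18952 probe sets, 183 were controls and stayed out, and 18769 were fitted with limma 3.58.1 (R 4.3.3) over all 4 groups, with Benjamini-Hochberg adjustment over all probe sets. All adjusted p-values are from this fit. Of these, 13646 had 1 gene symbol, 402 several and 4721 none. A gene with several probe sets was represented by the one with the highest mean over all arrays. Summaries and the exact permutation test used Python 3.11.15, pandas 2.3.3 and scipy 1.17.1. The fit was tested on simulated data.

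Named genes were the 15 largest called differences in each direction with no overlap, up to 5 members of each of 62 gene lists with the largest difference, up to 3 called members opposing the majority of a list, and the markers. The genes and lists were chosen with earlier results of these data known, and list names were corrected after values had been seen. Alternatives covered the normalization, the filter, the spread model, the minimum difference and leaving out arrays.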

Additional observations from a re-analysis of the deposited data

Results flagged for a closer look

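Among 364 sets of 5 arrays checked for the named genes, 32 held an array far from the other 4, and chance alone gives about 1 in 20. The markers bnb, nrv2, Gs2 and fne were not among the genes checked. Surface glia 3 stood above its group for up at 10.98, Mlc2 at 12.61, Zasp66 at 12.51, Hsc70-1 at 12.47, Hsp26 at 12.11, Tpi at 12.58 and Myd88 at 10.68. Surface glia 1 stood above its group for Akh at 13.21, Tbh at 6.89, SerT at 7.67, NetB at 9.45 and Alk at 8.78. Surface glia 5 was apart for alrm at 6.92, CG7203 at 5.15, ImpL2 at 9.79 and dco at 7.17. Surface glia 4 was apart for e at 7.00, CG15279 at 7.48, NLaz at 5.64, FASN1 at 7.04 and Irk3 at 5.86, and surface glia 2 for tim at 8.54.

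In whole brain, array 1 was apart for CG10444 at 7.43, CG10226 at 7.84, Vinc at 7.97, Sdr at 7.66 and vir-1 at 12.25. Array 3 was apart for CPT2 at 5.56 and wal at 9.15, array 4 for e at 9.95, and array 5 for Cyp6a20 at 7.04 and pirk at 4.92. The whole-brain arrays lay close together, so these gaps are small in size.

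Of the control probe sets outside the comparison, 3 were high in the sorted groups and near the floor in whole brain. Their targets are not named in the sources used here. They averaged 10.41, 8.90 and 11.72 in surface glia, 9.25, 9.58 and 11.67 in all glia and 11.16, 12.63 and 12.70 in neurons, against 1.89, 2.61 and 2.25 in whole brain. The second varied most over the surface glia arrays, at 7.18, 10.07, 11.37, 4.59 and 11.29.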

How the results depend on the processing

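Of the 175 genes named in the text that passed both thresholds, 130 still passed them under all 27 alternatives, 45 did not under at least 1, and 2 of these, RpL3 and gbb, also turned sign. The markers bnb, nrv2, Gs2 and fne were outside this check. The 1731 higher genes became 168 and the 2495 lower genes 5580 with arrays centred on their negative controls. A filter on the highest negative control gave 886 higher genes, a mean of the higher group above the median level 955, a mean at least 2 above the controls 533, and no filter 3487. A minimum difference of 2 gave 337 higher and 1122 lower genes. Leaving out 1 array at a time gave 1622 to 1861 higher and 2302 to 2596 lower genes and a difference of the control medians of 1.16 to 1.43. With arrays centred on the controls, repo stood at −0.76, ogre at −0.83, gbb at −0.12 and RpL3 at −0.26, and with probe sets averaged RpL3 stood at −0.07. Of these 175 genes, 8 no longer passed without 1 array: Akh, Pka-R1, Clk, up, RpL3, Mlc2, gbb and FASN1. Same-numbered arrays of the 2 groups deviated together with correlations of −0.009 to 0.059, and 3 of 5 surface glia arrays correlated best with their own number. Correlations this small cannot decide whether same-numbered arrays share a day or batch, which was not tested. With the replicate block 1726 genes were higher and 2533 lower, and of the named calls Akh was lost. A low signal over background limits the size of falls: for 176 of the lower genes surface glia lay within the controls on all 5 arrays. The cause of these shifts was not tested.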
